A study of Mus musculus with 6 samples.

Results

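Gfi1 and Gfi1b are paralogous zinc-finger repressors of blood cells, and they are described here together with 6 genes of the machinery they work through, Kdm1a, Rcor1, Hdac1, Hdac2, Ehmt2 and Zbtb17. Members were the rows of the deposited table whose gene symbol is one of these names, so 8 of 23955 symbols, and all 8 passed the filter on low values, which asked for 1 TPM or more on average over the 6 libraries. The libraries were made from haematopoietic stem cells (HSCs), sorted from marrow by c-Kit, Sca-1 and CD150, without CD48 and lineage markers, at 20000 cells per library. One group was WT littermates and the other was mice homozygous for db, a mutation of the leptin receptor gene that removes the long receptor form in the whole body and makes the animals obese. All mice were C57BL/6 and 4 months old, and no other allele or treatment is given in the labels. Each of 3 independent experiments gave 1 WT and 1 db/db library, so n = 3 per group, and replicate numbers are the experiment numbers. The labels call each library HSCs from a mouse and do not say whether animals were pooled.

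Gfi1 and Gfi1b each carry a short SNAG domain at the start of the protein and zinc fingers at its end. The fingers of both bind DNA with an AATC core, and the SNAG domain resembles the tail of histone H3 and docks into the histone demethylase Kdm1a (LSD1), which brings its scaffold Rcor1 (CoREST) and the deacetylases Hdac1 and Hdac2 to the bound gene. Ehmt2 (G9a) adds the repressive H3K9 methyl mark, and Zbtb17 (Miz-1) is a DNA-bound factor through which Gfi1 reaches genes such as the cell-cycle inhibitor Cdkn1a. In marrow, Gfi1 is known for restraining HSC division and for neutrophil formation, Gfi1b for red cell and platelet formation, and each is known to repress its own promoter and that of the other.

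Because of that cross-repression, the windows before the gene starts of Gfi1b and Gfi1 are shown first, with every AATC core on either strand in capitals (GATT is the core on the other strand). They are the 250 bases before a RefSeq gene start on build GRCm38.p6, written 5′ to 3′ on the gene's own strand, and both genes lie on the minus strand. Gfi1b is at chr2:28621983-28622232 and the first of the Gfi1 starts at chr5:107725806-107726055.
Gfi1b: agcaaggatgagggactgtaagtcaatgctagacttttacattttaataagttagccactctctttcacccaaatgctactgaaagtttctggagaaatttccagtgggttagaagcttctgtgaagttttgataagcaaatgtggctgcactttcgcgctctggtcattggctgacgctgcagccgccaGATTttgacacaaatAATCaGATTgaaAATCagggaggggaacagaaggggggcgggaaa
Gfi1: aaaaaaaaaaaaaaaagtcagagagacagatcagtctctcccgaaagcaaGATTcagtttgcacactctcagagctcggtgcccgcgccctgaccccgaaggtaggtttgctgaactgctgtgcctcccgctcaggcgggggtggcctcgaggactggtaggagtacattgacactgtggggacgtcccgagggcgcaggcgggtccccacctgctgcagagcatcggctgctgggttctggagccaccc

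The Gfi1b window held 4 AATC cores, 2 on each strand and none overlapping another, and all 4 lay within the last 60 bases before the start. Among 32851 windows of the same length before RefSeq gene starts, 69.0% held at least 1 core and 7.04% held at least 4. The first Gfi1 window held 1 core, and the window before the second Gfi1 start held 0. The longer word AAATCA, searched on both strands and overlapping the AATC core, occurred once in the Gfi1b window and in 12.4% of all windows. RefSeq windows were matched for 7 of the 8 members. The windows of Rcor1, Hdac2, Ehmt2 and Zbtb17 held 0 cores, and that of Kdm1a held 1. These are matches of letters and not measured sites.

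The libraries carried the markers of the sorted cell. Kit, the c-Kit receptor, was 249 ± 93.8 TPM in WT, against 294 ± 63.1 TPM in db/db HSCs, and Ly6a, which encodes Sca-1, was 384 ± 77.6 and 388 ± 36.4 TPM (SD, n = 3 each). Cd48, a marker excluded by the gate, was 5.35, 4.20 and 1.09 TPM in the WT libraries of experiments 1 to 3, against 9.10, 21.4 and 1.63 TPM in db/db. TPM corrects for transcript length, so levels of different genes can be compared, but it keeps no read depth, and the error given is the spread between libraries. WT replicate 1 stood apart from the other WT libraries in granulocyte transcripts, as given below beside Gfi1. The size factor, the median ratio of a library's TPM to the gene means, was lowest in WT replicate 2, at 0.815, and highest in db/db replicate 3, at 1.23. Over all 11931 genes tested, fold changes had a median of 0.18 (log2) with TPM as deposited and of 0.00 with median-of-ratios scaling, so the fold change of each member is also given relative to 0.18.

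Gfi1 was the least abundant of the 8 members in WT HSCs. It was 1.99, 3.88 and 4.75 TPM in the WT libraries of experiments 1 to 3, against 11.8, 17.3 and 10.2 TPM in their db/db counterparts. All db/db libraries lay above all WT libraries, and WT replicate 1 was the lowest. The means of 3.54 ± 1.41 and 13.1 ± 3.74 TPM (SD, n = 3 each) placed Gfi1 above 16.4% of the genes tested in WT and above 42.1% in db/db HSCs. On the log2(TPM + 1) scale the fold change was 1.65 (SE 0.46), with a 95% interval of 0.70 to 2.60, and 1.47 relative to all genes. It did not pass an adjusted p of 0.05 in limma over all genes (Benjamini-Hochberg adjusted p = 0.435, unadjusted p = 0.00160), and p was 0.1 in the exact two-sided permutation test, which cannot go lower with 3 against 3 libraries. Of the 11931 genes, 42 had an unadjusted p as small as that of Gfi1 or smaller, in either direction and with Gfi1 included. A fold change at least as large was reached by 83 genes in either direction, of which 59 were higher in db/db. In bulk RNA, fewer cells with a transcript and less of it per cell cannot be told apart.

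**Figure D1:**
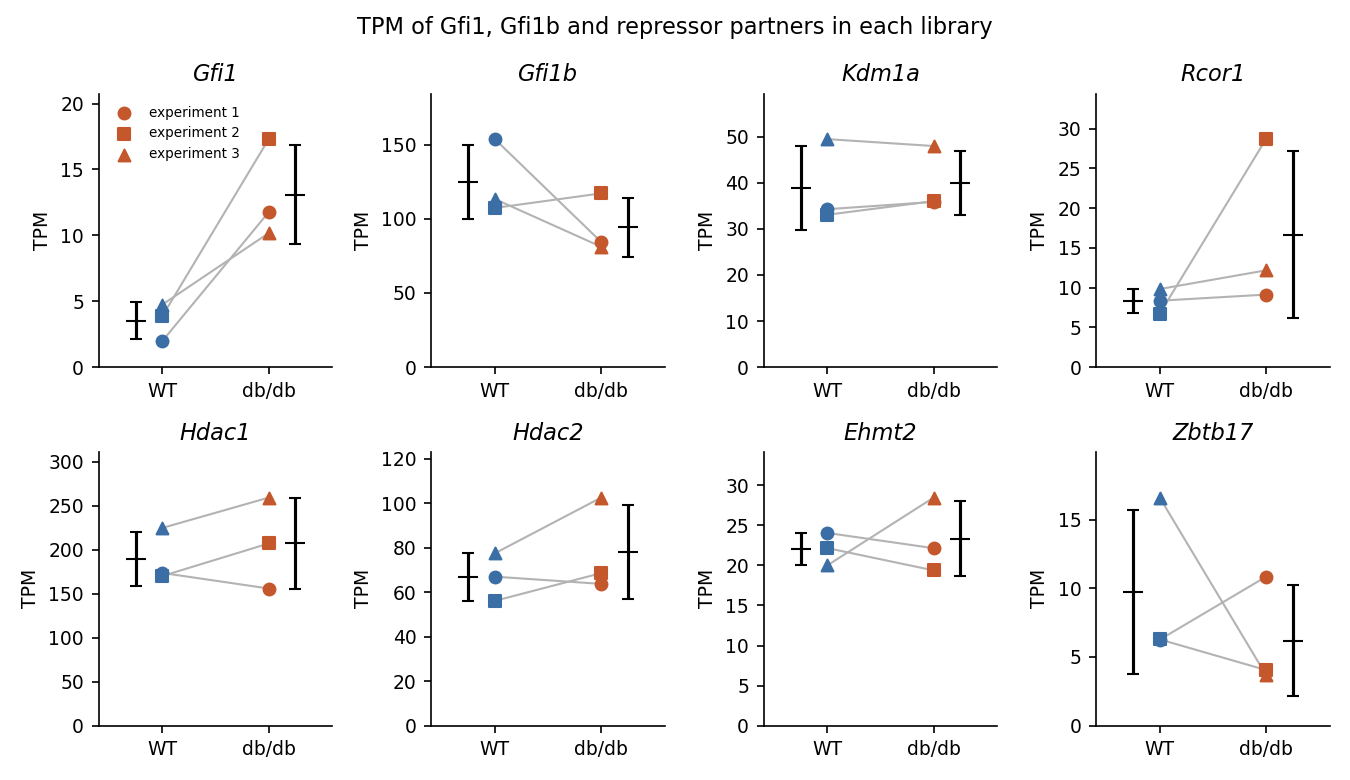
TPM (y axis, linear from 0) of the 8 members in WT (blue) and db/db (orange) HSCs, with grey lines joining libraries of an experiment and the black bars giving mean ± SD (n = 3). For Gfi1 the lowest db/db library, at 10.2 TPM, lies above the highest WT library, at 4.75 TPM, and for the other 7 genes the groups overlap.

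Gfi1b stood far above Gfi1. It was 154, 107 and 113 TPM in WT, against 84.4, 117 and 81.2 TPM in db/db libraries. The groups overlapped, since db/db replicate 2 was above WT replicates 2 and 3, while db/db was the lower library in experiments 1 and 3. The means were 125 ± 25.2 and 94.2 ± 19.9 TPM (SD, n = 3 each), with a log2 fold change of -0.40 (SE 0.27, 95% interval -0.97 to 0.16) and -0.58 relative to all genes. It did not pass in limma (adjusted p = 0.919), and the differences within experiments 1 to 3 were -0.86, 0.13 and -0.48.

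The balance of the paralogs was therefore compared within each library, where the scaling of the library cancels but for the added 1. Gfi1 made up 1.28%, 3.49% and 4.02% of the summed Gfi1 and Gfi1b TPM in WT, against 12.2%, 12.9% and 11.1% in db/db libraries. The db/db libraries lay close together, with an SD of 0.877 percentage points around 12.1%, and all of them lay above the WT libraries. Gfi1b exceeded Gfi1 77.2, 27.7 and 23.9-fold in WT, against 7.18, 6.77 and 7.98-fold in db/db HSCs. The log2 ratio of Gfi1 to Gfi1b, each with 1 TPM added, was -4.83 ± 0.76 in WT and -2.77 ± 0.10 in db/db (SD, n = 3 each), a difference of 2.06, with differences of 2.95, 1.78 and 1.43 within the experiments. Its p was 0.1 in the exact two-sided permutation test, which cannot go lower. The summed TPM of both genes was 156, 111 and 118 in WT, against 96.2, 134 and 91.3 in db/db libraries and overlapped. By the shares above, Gfi1b made up most of the pair in every library.

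**Figure D2:**
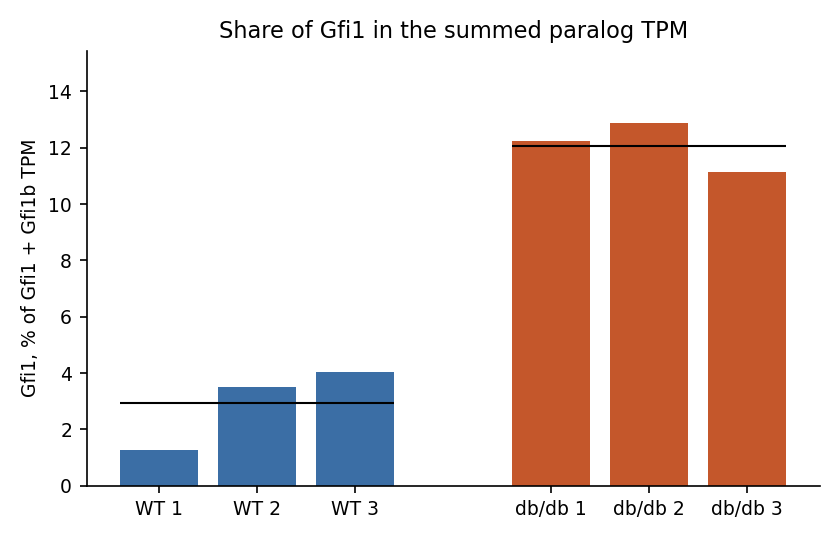
Gfi1 TPM as a percentage of summed Gfi1 and Gfi1b TPM (y axis, linear from 0) in each library, with black lines at the group means. WT libraries (blue) lie between 1.28% and 4.02% and db/db libraries (orange) between 11.1% and 12.9%.

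Among the partners that the SNAG domain recruits, values overlapped between the groups for every enzyme. Kdm1a, the demethylase that removes methyl groups from histone H3, was 34.3, 33.1 and 49.5 TPM in WT, against 35.8, 36.0 and 48.0 TPM in db/db libraries. Experiment 3 was the highest in both groups, and within experiments the differences were 0.06, 0.12 and -0.04. The log2 fold change was 0.05 (SE 0.32, 95% interval -0.61 to 0.70), or -0.13 relative to all genes. Its relative Kdm1b was at 1.41 to 4.52 TPM in the 6 libraries, so Kdm1a made up 91.0% to 96.4% of the pair.

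Hdac1, the most abundant member, was 174, 170 and 225 TPM in WT, against 156, 207 and 259 TPM in db/db libraries. Hdac2 was 67.0, 56.1 and 77.5 TPM in WT, against 63.8, 68.6 and 103 TPM in db/db libraries. Both overlapped between the groups and were lower in db/db in experiment 1 only. The log2 fold changes were 0.11 for Hdac1 (95% interval -0.42 to 0.65) and 0.20 for Hdac2 (-0.40 to 0.81), which are -0.07 and 0.02 relative to all genes. The ratio of Hdac1 to Hdac2 TPM stayed between 2.45 and 3.03 in the 6 libraries. Hdac3, the class I deacetylase of the NCoR complex, was 53.0, 45.9 and 45.5 TPM in WT, against 71.4, 56.9 and 71.3 TPM in db/db libraries, and its groups did not overlap. Hdac3 had a log2 fold change of 0.45 (SE 0.29) and did not pass in limma (adjusted p = 0.919). Among all genes tested, 7.85% did not overlap with db/db higher and 2.32% with db/db lower.

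Rcor1, the scaffold that ties Kdm1a to the deacetylases, was 8.36, 6.73 and 9.83 TPM in WT, against 9.13, 28.7 and 12.2 TPM in db/db libraries. It was the higher library in db/db in all 3 experiments, as were 22.7% of all genes tested, but the groups overlapped and db/db replicate 2 stood apart. The log2 fold change of 0.78 (SE 0.44, 95% interval -0.14 to 1.70; 0.60 relative to all genes) did not pass in limma (adjusted p = 0.919) and was 0.33 without db/db replicate 2. The related scaffolds Rcor2 and Rcor3 were at similar levels, 22.2 ± 10.6 and 15.5 ± 4.82 TPM in WT, against 21.6 ± 14.0 and 18.8 ± 10.0 TPM in db/db HSCs. Rcor1 thus made up 20.4%, 20.2% and 15.4% of the TPM of the 3 scaffolds in WT, against 16.1%, 41.2% and 27.3% in db/db libraries, and Gfi1b TPM exceeded Rcor1 TPM 11.5 to 18.4-fold in WT and 4.08 to 9.25-fold in db/db libraries.

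Ehmt2 had a coefficient of variation of 9.18% over the WT libraries, the smallest of the members. It was 24.1, 22.2 and 20.0 TPM in WT, against 22.2, 19.4 and 28.5 TPM in db/db libraries, with overlap, and the log2 fold change was 0.06 (SE 0.34, 95% interval -0.65 to 0.78), or -0.12 relative to all genes. The signs of the Kdm1a, Hdac1 and Ehmt2 fold changes thus turn with the scaling of the libraries. Its heterodimer partner Ehmt1 was 15.0 ± 6.37 and 17.2 ± 6.57 TPM. Ehmt2 made up 48.0% to 73.7% of the pair, a range with no separation of the groups.

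Zbtb17 varied among libraries of both groups. It was 6.26, 6.28 and 16.6 TPM in WT, against 10.8, 4.05 and 3.69 TPM in db/db libraries. WT replicate 3 was the highest and stood apart, and the direction turned between experiments, with differences of 0.71, -0.53 and -1.91. The log2 fold change of -0.58 (SE 0.50, 95% interval -1.62 to 0.46; -0.76 relative to all genes) did not pass in limma (adjusted p = 0.920) and was -0.15 without WT replicate 3.

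None of the 8 members passed the adjusted threshold, against 0.0335% of all genes tested, which were 4 genes higher in db/db and 0 lower. At an unadjusted p under 0.05, Gfi1 was the 1 member that was higher, and 0 were lower. Over all genes these shares were 4.10% and 1.25%. Gfi1 was also the 1 member whose groups did not overlap. Over all genes tested, 7.85% did not overlap with db/db higher and 2.32% with db/db lower, so 1 of 8 members is near these shares. Gfi1 and Rcor1 were higher in db/db in all 3 experiments, as were 22.7% of all genes tested. In all 3 experiments 0 members were lower, as 7.55% of all genes tested were. The median log2 fold change of the 8 members was 0.09, against 0.18 over all genes, with 3 members above the latter (Gfi1, Rcor1 and Hdac2) and 5 below.

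**Figure D3:**
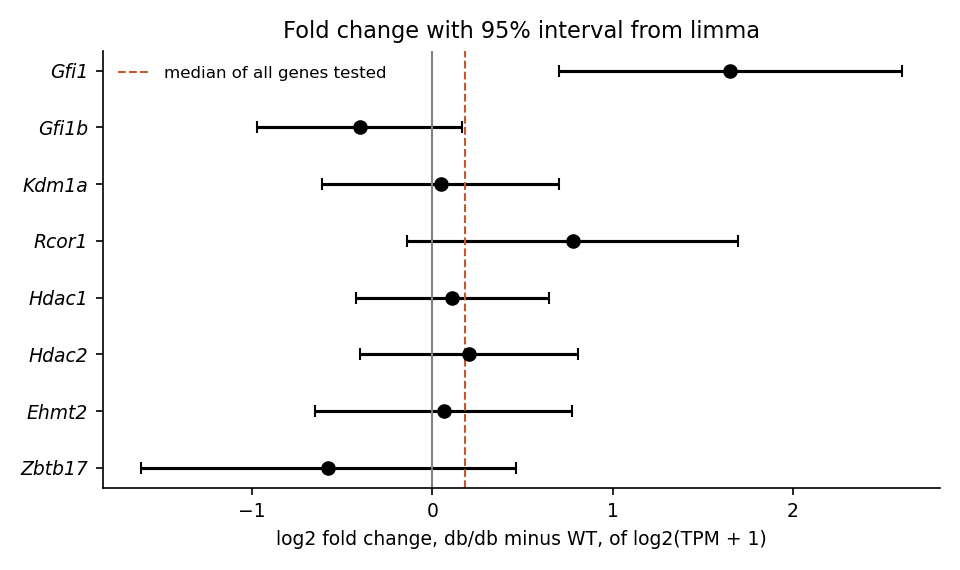
Log2 fold change of log2(TPM + 1), db/db minus WT, of each member (points) with its 95% interval from limma, with a grey line at 0 and an orange dashed line at the median of all genes tested. The interval of Gfi1, 0.70 to 2.60, lies above both lines, and those of the other members include 0.

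The order of the mean levels differed between the groups in the last 3 places. In WT it ran from Hdac1 through Gfi1b, Hdac2, Kdm1a, Ehmt2, Zbtb17 and Rcor1 down to Gfi1, and among neighbours in that order only Zbtb17 and Rcor1 overlapped in range. In db/db HSCs the first 5 places were the same, followed by Rcor1, Gfi1 and Zbtb17. There the ranges overlapped between Gfi1b and Hdac2, between Ehmt2 and Rcor1, between Rcor1 and Gfi1, and between Gfi1 and Zbtb17, although Gfi1 exceeded Zbtb17 in each of the 3 db/db libraries.

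The genes whose log2 values followed those of Gfi1 most closely over the 6 libraries, among the 9506 genes that averaged 5 TPM or more, were Pank3, Poll, Vdr, Itga2b and Apoo, with Pearson r from 0.984 to 0.994. Itga2b encodes the platelet integrin CD41 and Vdr the vitamin D receptor. Itga2b was 17.2, 20.8 and 23.0 TPM in WT, against 29.3, 39.2 and 28.6 TPM in db/db libraries. Vdr was 14.8, 20.3 and 24.6 TPM in WT, against 33.1, 38.7 and 30.2 TPM in db/db libraries. Like Gfi1, both were lowest in WT replicate 1 and highest in db/db replicate 2. For these 5 genes r was 0.940 to 0.989 on the deviations from the group means as well. For Gfi1b the closest genes were Edem2, Rnf26, Hist1h2ag, Cnih1 and Ttk, with r from 0.925 to 0.951. With 6 libraries that share their scaling, these values only describe likeness.

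Other subunits of the repressor complexes were read from lists that hold some of the members. Of the 17 measured genes of the LSD1-CoREST list, 0 passed the adjusted threshold, 0 had an unadjusted p under 0.05 and 0 separated the groups, and the list median was 0.05 relative to all genes. The list's smallest p apart from Rcor1 belonged to Rreb1, a zinc-finger factor that was 19.3 ± 6.73 and 27.5 ± 4.56 TPM, while the corepressor Ctbp1, its most abundant gene besides the members, was 63.4 ± 18.5 and 63.6 ± 4.04 TPM (SD, n = 3 each). Gse1 and Zmym3 had log2 fold changes of 0.40 and 0.43.

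Of 22 genes of the NuRD, Sin3 and NCoR deacetylase complexes, 0 passed the adjusted threshold, 1 was higher at an unadjusted p under 0.05 and 0 were lower, with a median of 0.15 relative to all genes. The 1 gene was Gatad2b, a NuRD subunit, at 47.5, 10.5 and 48.1 TPM in WT, against 39.6, 67.1 and 74.7 TPM in db/db libraries. WT replicate 2 was the low library, and in experiment 1 Gatad2b was lower in db/db. Mbd2, Tbl1x and the histone chaperone Rbbp7, the most abundant besides Hdac1, had log2 fold changes of 0.71, 0.58 and 0.50.

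Of 18 genes of H3K9 methylation, 0 passed, 1 was higher at an unadjusted p under 0.05 and 0 were lower, with a median of 0.18 relative to all genes. The heterochromatin protein gene Cbx3 was 88.0, 92.8 and 91.6 TPM in WT, against 95.2, 199 and 154 TPM in db/db libraries, its log2 fold change being 0.65 (SE 0.29; adjusted p = 0.899 in limma). Its groups did not overlap, as also held for Trim28, Zfp644 and Kdm3a, a total of 4 of 18, against 7.85% of all genes tested whose db/db libraries all lay above WT. Trim28, a corepressor of zinc-finger proteins and the most abundant gene of this list, was 149 ± 23.1 and 206 ± 16.4 TPM. Suv39h1, an H3K9 methyltransferase, was 30.4 ± 4.50 and 47.5 ± 16.4 TPM (SD, n = 3 each).

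SNAG-domain factors other than Gfi1 and Gfi1b were near 0. Of 11 listed genes, Snai1, Snai2, Snai3 and Scrt2 were listed at 0 in every library. Insm1, the 1 further SNAG gene that passed the filter, was at most 0.84 TPM in 5 libraries and 7.39 TPM in db/db replicate 3.

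Genes that Gfi1 or Gfi1b are known to bind or repress had fold changes centred near the median of all genes. Of 28 measured genes, which include Gfi1 and Gfi1b, 0 passed the adjusted threshold. At an unadjusted p under 0.05, 2 were higher (Gfi1 and Tgfbr3) and 0 lower, against 4.10% and 1.25% of all genes tested. The groups of 4 genes (Gfi1, Spi1, Tgfbr3 and Myc) did not overlap with db/db higher, and those of 0 with db/db lower. Over all genes tested these shares were 7.85% and 2.32%. In the list 14 genes exceeded the median of all genes and 14 did not reach it, the list median being 0.00 relative to it. Tgfbr3, a coreceptor of TGF-beta ligands, was 34.8, 15.6 and 31.6 TPM in WT, against 44.1, 41.4 and 46.2 TPM in db/db libraries, without overlap, its log2 fold change being 0.74 (SE 0.35; adjusted p = 0.919 in limma). Cdkn1a was 38.1, 15.0 and 13.9 TPM in WT, against 69.7, 43.7 and 16.2 TPM in db/db libraries. It was higher in db/db in each experiment, but the groups overlapped, and experiment 1 was highest in both. Cdkn2b, which encodes another cell-cycle inhibitor that Miz-1 and Gfi1 control, was listed at 0 in every library. Egr1 was the most abundant gene of the list and overlapped between the groups. The HSC regulators Meis1 and Hoxa9 had log2 fold changes of 0.10 and 0.34.

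Of 11 measured genes of the Miz-1 network, 0 passed and 0 had an unadjusted p under 0.05, with a median of 0.13 relative to all genes. Myc, which binds Miz-1, was 159, 136 and 168 TPM in WT, against 203, 169 and 202 TPM in db/db libraries. The gap between the highest WT and the lowest db/db library of Myc was under 1 TPM. Max, the dimer partner of Myc, was 276 ± 54.4 and 369 ± 92.1 TPM, and Vamp4, a vesicle fusion gene that Miz-1 activates, was 8.20 ± 1.13 and 14.8 ± 5.58 TPM (SD, n = 3 each). Npm1, a nucleolar Miz-1 partner, was the most abundant gene of this list, with a log2 fold change of 0.18.

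Of 14 other proteins known to bind Gfi1 or Gfi1b, 0 passed and 0 had an unadjusted p under 0.05, with a median of 0.00 relative to all genes. Spi1 (PU.1), the myeloid factor that Gfi1 antagonises, was 108, 101 and 106 TPM in WT, against 140, 117 and 137 TPM in db/db libraries. The WT libraries of Spi1 lay close together and below all db/db libraries, its log2 fold change being 0.32 (SE 0.25; adjusted p = 0.920 in limma), or 0.14 relative to all genes. Chd4, a NuRD helicase, and Trp53 had log2 fold changes of 0.47 and 0.11.

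Factors known to bind the Gfi1 or Gfi1b locus were the remaining list. Of 18 measured genes, 0 passed, 2 were higher at an unadjusted p under 0.05 (Gfi1 and Ikzf1) and 0 lower, with a median of 0.10 relative to all genes. Ikzf1 (Ikaros) was 86.5, 78.3 and 124 TPM in WT, against 112, 150 and 169 TPM in db/db libraries and overlapped. Runx1 and Erg, of the stem cell factor group, had log2 fold changes of 0.44 and 0.69, and Lmo2, the most abundant, had 0.22.

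**Figure D4:**
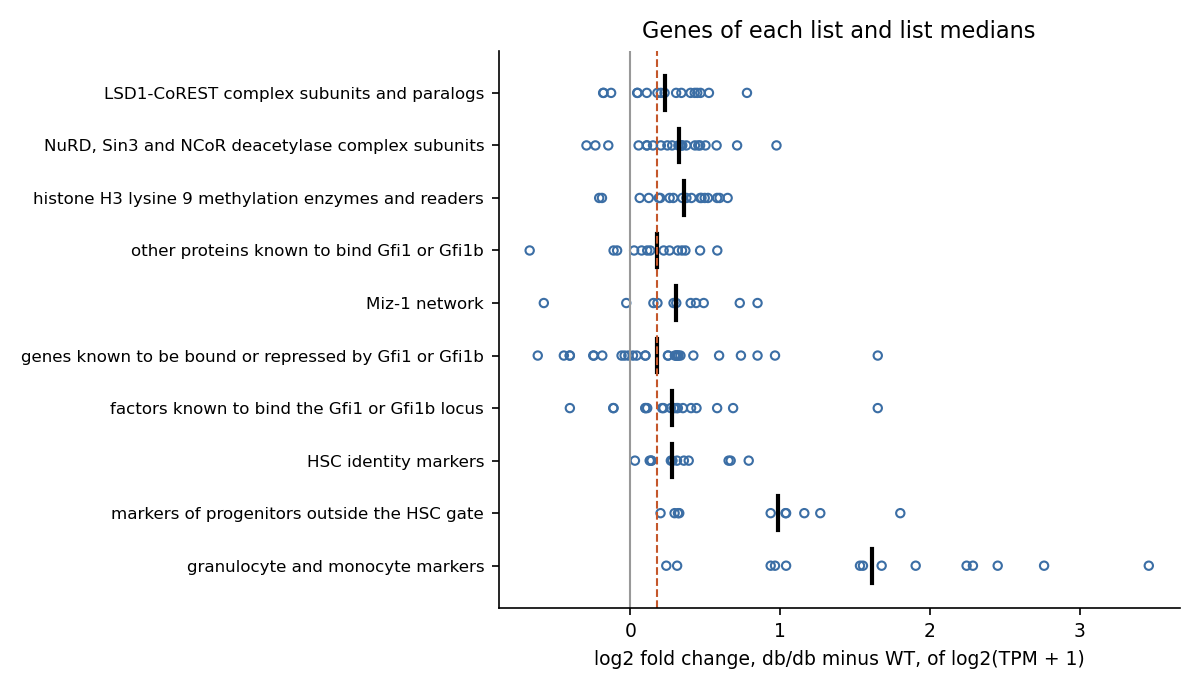
Log2 fold change, db/db minus WT, of log2(TPM + 1) for the genes of 10 lists (circles), with black bars at the list medians, an orange dashed line at the median of all genes tested (0.18) and a grey line at 0. The rightmost circle in the lists of targets and of locus-binding factors is Gfi1, at 1.65.

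Cells outside the HSC gate also express Gfi1, so marker levels stand beside it. Granulocyte and monocyte markers summed to 4849, 602 and 576 TPM in WT, against 4268, 2420 and 1763 TPM in db/db libraries over 16 listed genes. WT replicate 1 had the highest sum and the lowest Gfi1, and in experiment 1 the sum was lower in db/db while the Gfi1 difference of 2.09 was the largest. Of 14 measured markers, 9 were higher at an unadjusted p under 0.05 and 0 lower, and 0 passed the adjusted threshold, with a median of 1.44 relative to all genes. Over all genes tested, 4.10% were higher and 1.25% lower at that p. Fcnb was 16.4, 0 and 0 TPM in WT, against 31.9, 15.6 and 41.8 TPM in db/db libraries. The granule protein gene Lcn2 was 143, 8.10 and 12.8 TPM in WT, against 217, 221 and 116 TPM in db/db libraries. Ly6c2, a monocyte surface marker gene, was 17.9, 3.43 and 1.32 TPM in WT, against 21.97, 68.6 and 18.9 TPM in db/db libraries. All 3 genes, which had the smallest p of the list, were higher in db/db in each of the 3 experiments, and Ly6c2 separated the groups as Gfi1 did. In experiment 1 the list was mixed. S100a8, S100a9, Ngp, Camp, Ltf, Ctsg and Cd177 were lower in db/db there, while Elane, Mpo, Prtn3 and Csf3r were higher. S100a8, a calprotectin subunit gene and the most abundant of the list, was 2127, 67.8 and 90.5 TPM in WT, against 1528, 559 and 512 TPM in db/db libraries, with overlap. Without experiment 1, the log2 fold change of Gfi1 was 1.43.

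Markers of progenitors outside the gate summed to 647, 551 and 657 TPM in WT, against 770, 1189 and 846 TPM in db/db libraries. This sum separated the groups in TPM as deposited. No marker sum was rescaled, and size factors were 0.914, 0.815 and 1.14 in WT, against 0.915, 1.13 and 1.23 in db/db libraries. Separation of the sums after scaling was not tested. Of 10 measured genes, 3 were higher at an unadjusted p under 0.05 (Cd53, Nkg7 and Flt3), 0 were lower and 0 passed. The list lay 0.81 above all genes by its median. Here and for the lists that follow, the shares over all genes at that p were 4.10% higher and 1.25% lower. The erythroid sum also separated the groups, at 111 to 218 TPM in WT, against 329 to 1414 TPM in db/db libraries. Most of it in db/db was Hbb-b2, a beta-globin gene at 55.1 to 89.3 TPM in WT and 256 to 1348 TPM in db/db. Of 8 measured erythroid genes, Hbb-b2 alone passed, and 2 were higher at an unadjusted p under 0.05 (Hbb-b2 and Klf1) and 0 lower. Gata1, Epor, Car1, Hba-a1, Hbb-b1 and Tfrc overlapped between the groups. The erythroid list median was 0.05 relative to all genes, so the sum does not show a shift of the whole list. The megakaryocyte sum, at 1454 to 1772 TPM in WT, against 1785 to 2053 TPM in db/db, separated the groups by a smaller gap. The lymphoid sum overlapped, at 49.0 to 82.2 TPM in WT and 72.3 to 129.9 TPM in db/db, with Cd3e, Il7r, Rag1, Ebf1 and Pax5 at 0 in every library. Of 3 measured lymphoid genes, Thy1 and Cd4, a total of 2, were higher by an unadjusted p under 0.05, 0 lower, and 0 passed, with a median of 1.04 relative to all genes. That median is the value of Cd4 alone, and it was 0.26 over 7 genes without the filter. Thy1 was 17.4, 16.5 and 7.86 TPM in WT, against 54.3, 34.7 and 32.03 TPM in db/db libraries, so it separated the groups as Gfi1 did. Cd4, the T cell coreceptor, was 3.23, 2.31 and 7.55 TPM in WT, against 14.0, 7.47 and 10.8 TPM in db/db libraries, with overlap. Cd79b, a B cell receptor component and the most abundant of the 3, was 45.4 ± 14.3 and 42.5 ± 15.9 TPM (SD, n = 3 each). The mast cell and basophil sum was 0.67 to 2.93 TPM in WT and 5.01 to 14.95 TPM in db/db, and Mcpt8, Ms4a2, Prss34 and Cma1 were at 0 in every library. Markers of HSC identity had a median of 0.10 relative to all genes. By an unadjusted p under 0.05, 1 of 13 was higher (Slamf1, which encodes CD150) and 0 lower, near the shares over all genes. The groups of 2 of the 13, Slamf1 among them, did not overlap with db/db higher, against 7.85% of all genes tested. The part of these markers in the Gfi1 difference was not tested.

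**Figure D5:**
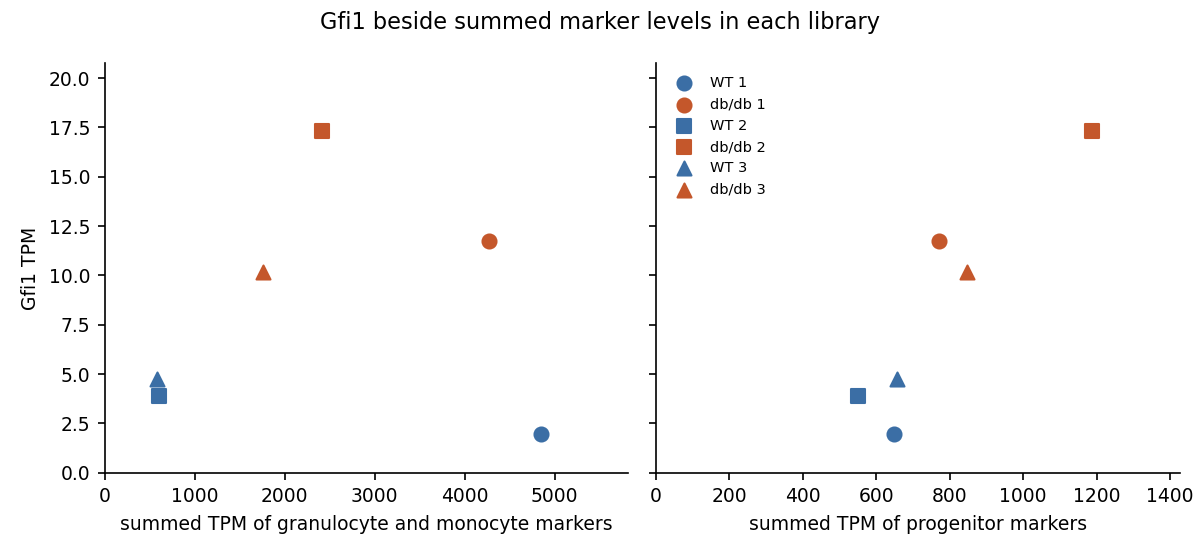
Gfi1 TPM (y axis) against the summed TPM of granulocyte and monocyte markers (left) and of progenitor markers (right) in each library, all axes linear from 0, with circles, squares and triangles for experiments 1, 2 and 3. WT replicate 1 combines the highest granulocyte sum, 4849 TPM, with the lowest Gfi1, and on the right the db/db libraries (orange) lie above the WT libraries (blue) on both axes. All values are TPM as deposited, without rescaling.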

How the data were processed

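RNA of 6 HSC libraries, 3 WT and 3 db/db, was read as paired 75-nucleotide reads from stranded poly(A) libraries, per the labels' protocols. The deposited table gives TPM for each gene symbol, made by the authors with RSEM and Bowtie2 on mm9, per the submitters' processing notes. Versions, annotation and strand settings are not given in the sources used here. TPM keeps no depth, so no counting error or floor is given.

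Here log2(TPM + 1) of the 11931 genes that averaged 1 TPM or more was fitted with limma 3.58.1 in R 4.3.3, with genotype as the only term, a trended prior, two-sided tests and Benjamini-Hochberg adjustment over all genes. Genes passed where the adjusted p was under 0.05. Single values were also given an exact permutation test. With separate samples named only by experiment, p-values measure the spread between these samples. The members, the lists and the rules were chosen with earlier results of these data known. Besides the members, the rule named from each of 15 lists the 3 genes of smallest p and the 1 of highest mean, and the 5 genes most like Gfi1 and like Gfi1b. One gene that this rule names is not reported here. Paralogs, neighbours and other genes were added after their values were seen.

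The labels pair the libraries, 1 of each genotype per experiment. Deviations from the group means correlated across genes at 0.04, 0.01 and 0.16 between libraries that share an experiment. Alternatives were other pseudocounts, filters, scalings, priors, weights per library, a replicate block for the experiment, leaving out each library and, chosen after seeing the data, leaving out experiment 1. Promoter windows are from RefSeq on GRCm38.p6, a later build than that of the TPM values, and were used for sequence only. The antisense gene A430072P03Rik, which overlaps Gfi1, has no deposited TPM values and was not analysed here. Luzp1 and Spen overlap Kdm1a and Zbtb17 on the other strand. Without a stated strand setting some reads may be shared within each of these pairs, that of Gfi1 included.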

Additional observations from a re-analysis of the deposited data

How the results depend on the processing

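No member passed the adjusted threshold in limma under any of the 16 alternatives run for each, or 17 for Gfi1 and Gfi1b. The log2 fold change of Gfi1 stayed between 1.38 and 1.92 (adjusted p 0.0633 to 0.9999), that of Gfi1b between -0.60 and -0.18, that of Rcor1 between 0.33 and 1.101 and that of Zbtb17 between -1.004 and -0.15. The Gfi1 to Gfi1b log2 ratio differed by 1.61 to 2.31 in 10 alternatives, and as a replicate block the exact sign-flip test had p = 0.25, its lower limit. With the replicate block no member passed and 6 genes passed over the table. The directions of 4 partners with small fold changes turned. After median-of-ratios scaling Kdm1a was -0.14, Hdac1 -0.084 and Ehmt2 -0.12, and after quantile normalization they were -0.15, -0.037 and -0.13. When 1 library was left out the ranges were -0.089 to 0.23 for Kdm1a, -0.064 to 0.30 for Hdac1, -0.0038 to 0.33 for Hdac2 and -0.083 to 0.18 for Ehmt2. The cause was not tested. The count of genes that passed over the whole table, 4, was 0 without a filter, 1 after median-of-ratios scaling, 1 after quantile normalization, 0 without the trend, 1 with the robust prior, 16 with array weights, 15 without experiment 1 and 7 at an adjusted p under 0.1. It was 0 to 16 when 1 library was left out, reaching 16 when WT replicate 1 was omitted and 0 when db/db replicate 2 was. Unadjusted p-values under 0.05 were reached by 489 higher and 149 lower genes, against 297 and 355 after median-of-ratios scaling and 304 and 383 after quantile normalization. Without a filter these were 535 and 213, without the trend 457 and 148, with array weights 1367 and 315, and without experiment 1 they were 434 and 166. When 1 library was left out they ranged from 264 to 936 and from 113 to 224, with 936 and 140 when WT replicate 3 was omitted and 874 and 224 when db/db replicate 1 was, against 264 and 131 when WT replicate 2, 287 and 113 when WT replicate 1, 316 and 175 when db/db replicate 3 and 333 and 122 when db/db replicate 2 was left out. Of 240 list medians under alternatives, 228 moved by less than the spread between libraries, 12 moved by more, in 8 lists, and 21 had the opposite sign. The SNAG-domain list had only 3 tested genes, Gfi1, Gfi1b and Insm1. Its median of 0.42 relative to all genes was the value of Insm1, which exceeded 0.84 TPM only in db/db replicate 3. That median was -0.41 once db/db replicate 3 was omitted and 1.004 once db/db replicate 2 was, so it describes no shift of the family. The granulocyte median was 2.91 relative to all genes once WT replicate 1 was omitted, 0.79 once WT replicate 3 was, 0.97 once db/db replicate 1 was and 0.29 with array weights, and the progenitor median was 0.19 when WT replicate 3 was omitted and 0.16 when db/db replicate 2 was.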

Other observations

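The genes next to Gfi1 on its chromosome were looked at after their values were seen, taking the 5 tested genes on each side in the GRCm38 annotation. Of these 10 genes, 0 passed the adjusted threshold in limma and 1 was higher at an unadjusted p under 0.05, against 4.10% of all genes tested. That gene was Evi5, the nearest tested gene on the side of the Gfi1 start, and it lies on the same strand. Evi5, a regulator of vesicle traffic and cell division, was 1.56, 2.28 and 2.79 TPM in WT, against 2.89, 11.2 and 6.53 TPM in db/db libraries, its log2 fold change being 1.16 (SE 0.53; adjusted p = 0.919 in limma). The groups of Evi5 did not overlap, as for 7.85% of all genes tested with db/db higher, but WT replicate 3 and db/db replicate 1 lay close together. Rpl5, the next gene, was 1903, 1983 and 2525 TPM in WT, against 2138, 2279 and 2719 TPM in db/db libraries and overlapped. The median log2 fold change of the 10 neighbours of Gfi1 was 0.55, and that of the 10 neighbours of Gfi1b was -0.02, against 0.18 over all genes. The 0.55 falls in a gap between Fam69a at 0.32 and Btbd8 at 0.78, and low genes lie above it. Brdt and Btbd8 averaged 1.45 and 2.25 TPM over the 6 libraries. Ephx4 was 0 in every WT library and passed the filter through db/db replicate 3, at 8.59 TPM. A shift of the region is therefore not shown. Among the neighbours of Gfi1b, Mrps2, a mitochondrial ribosomal protein gene, was the 1 gene whose groups did not overlap, at 41.0, 39.9 and 57.2 TPM in WT, against 65.1, 59.3 and 81.6 TPM in db/db libraries.

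Cpa3, a protease gene of mast cells and their progenitors, was the 1 mast cell gene that passed the filter. It was 1.88, 2.41 and 0.67 TPM in WT, against 14.95, 11.4 and 5.01 TPM in db/db libraries, without overlap, and did not pass in limma (log2 fold change 2.06, SE 0.53, adjusted p = 0.334). Klf1, an erythroid factor, was 4.04, 5.36 and 0.63 TPM in WT, against 9.34, 10.7 and 6.07 TPM in db/db libraries, also without overlap, while Gata1, the erythroid and megakaryocytic factor that binds Gfi1b, overlapped at 12.9 ± 2.68 and 13.3 ± 9.17 TPM (SD, n = 3 each).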
